A study of Homo sapiens with 7 samples.

Results

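Genes of epithelial cell-cell junctions and of the keratin cytoskeleton were examined in SKOV3 cells carrying a knockdown of CtBP1 or CtBP2. The set is a list of 38 gene symbols, chosen with earlier results of these data known but with no threshold on their signals. It holds claudins and other tight junction proteins, desmosome proteins, keratins, polarity proteins, surface proteases with their inhibitors, and regulators of the epithelial state. Of the 38, 36 were measured among 17958 genes. OCLN and TJP3, which encode the tight junction proteins occludin and ZO-3, had no transcript cluster named by a lone symbol and were not analysed here. SKOV3 is an established human ovarian carcinoma cell line, labelled serous by the submitters. Cells were infected with lentivirus and kept in medium with puromycin in every group, controls included, and the clones comprise 2 scramble controls, 3 with the label CtBP1 knockdown and 2 with the label CtBP2 knockdown. Each was hybridised to 1 Affymetrix Human Gene 1.1 ST array, and the labels number the arrays of each group as clones. The labels say that the knockdown was checked by western blot, and the hairpin sequences are not given in the sources used here. The cell line field names SKOV3 for every sample, while the source field numbers the line differently on each. The p-values reflect just the spread among these clones of 1 line.

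Epithelial cells are joined by tight junctions, in which claudins and MARVEL-domain proteins seal the space between cells and are anchored by ZO proteins, and by desmosomes, in which cadherins (desmogleins and desmocollins) are tied through plakoglobin, plakophilins and desmoplakin to keratin filaments. Transcription factors such as GRHL2, OVOL2 and ELF3 sustain this programme, and ESRP1 and ESRP2 direct the splicing of epithelial mRNA isoforms. CtBP1 and CtBP2 are co-repressors that bind no DNA by themselves. They are brought to promoters by factors such as ZEB1, a repressor of epithelial genes that recognises E-boxes with the core CACCTG.

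Scramble control 1 was unlike the other arrays. Across genes it correlated with them at 0.926 to 0.941, while the other 6 correlated with each other at 0.971 to 0.993. Its log2 signals also spread less over the genes, with an interquartile range of 2.20 against 2.85 to 3.15 on the other 6. Quantile normalization, which gives every array the same spread, was among the settings tried. The means of 8 dividing-cell markers (MKI67, TOP2A, CCNB1, CDK1, BUB1, AURKB, PLK1 and CENPF), all measured, were 4.67 on scramble control 1 and 7.41 on scramble control 2, against 7.14 to 7.29 and 7.30 to 7.46 on the arrays labelled CtBP1 and CtBP2 knockdown, on the log2 scale. Their part in the differences from scramble given here was not tested. The CTBP2 log2 signal was 5.70 and 6.14 in the controls and 4.64 and 4.22 under its own knockdown, a difference of -1.49 ± 0.21 (limma, adjusted p = 0.18), or -0.78 over the mean of its clusters. For CTBP1 it was 5.69 and 6.37 in the controls and 5.11, 6.13 and 6.13 under its own label (-0.25 ± 0.39; adjusted p = 0.849, and 0.09 without scramble control 2). These overlap, so that group is named by its label below. Of the markers of the labelled cell, ERBB2, amplified in SKOV3, ran from 8.52 to 9.58, PAX8, a factor of Müllerian epithelium, from 6.41 to 8.65, KRT8 from 8.35 to 9.35 and EPCAM from 4.59 to 6.53. CDH1, the gene of E-cadherin, ran from 2.36 to 3.27 and WT1 from 1.92 to 2.21, and the file gives no detection call. The mesenchymal gene VIM ran from 8.03 to 9.77. The mean log2 signal of 7 fibroblast markers lay between 1.92 and 2.31 on every array and that of 4 endothelial markers between 1.92 and 2.10. That of 5 of 6 leukocyte markers lay between 2.64 and 3.00, with CD68 at 5.90 to 7.11 and PTPRC at 1.50 to 1.73.

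Promoter windows from RefSeq (GRCh38.p14, 250 bases before to 50 after the start) were matched by symbol to 20 of the 36 measured genes. The E-box core CACCTG, searched on both strands and so also as CAGGTG, was in at least 1 window of 13 of the 20 genes (65.0%), against 3933 of 15842 protein-coding genes (24.8%) and 6571 of 27305 genes of all kinds (24.1%). Counted by window, it was in 14 of 28 windows of these genes and in 20.6% of all 35116 windows. A match describes letters only. CRB3 and CLDN7 held 5 matches each in a window, AP1M2 held 3, and RAB25, MUC1, DSP, DSG2 and JUP held 2. For 9 genes that are described in full below, 1 window each is shown, 5′ to 3′ on the gene's strand, with each match in capitals, so that genes with a match can be set against those without. The windows of TPD52L1, LIN7C, CLDN1 and KRT8 hold no match. JUP, SPINT1 and DSC2 each have a second window, which is not shown and holds 0 matches, and that of MUC1 overlaps the one shown.
MUC1 promoter (chr1:155192860-155193159, minus strand): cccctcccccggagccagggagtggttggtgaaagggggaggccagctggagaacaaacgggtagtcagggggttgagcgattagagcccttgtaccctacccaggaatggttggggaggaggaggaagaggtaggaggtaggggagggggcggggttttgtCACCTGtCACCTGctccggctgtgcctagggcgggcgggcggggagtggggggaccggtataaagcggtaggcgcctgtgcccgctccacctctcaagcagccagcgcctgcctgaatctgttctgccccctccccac
SPINT1 promoter (chr15:40844227-40844526, plus strand): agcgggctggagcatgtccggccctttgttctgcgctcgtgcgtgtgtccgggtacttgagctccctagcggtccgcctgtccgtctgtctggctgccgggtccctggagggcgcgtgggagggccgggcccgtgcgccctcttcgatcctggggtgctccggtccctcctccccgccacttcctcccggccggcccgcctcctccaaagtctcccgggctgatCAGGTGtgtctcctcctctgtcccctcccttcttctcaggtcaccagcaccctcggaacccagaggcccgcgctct
JUP promoter (chr17:41785927-41786226, minus strand): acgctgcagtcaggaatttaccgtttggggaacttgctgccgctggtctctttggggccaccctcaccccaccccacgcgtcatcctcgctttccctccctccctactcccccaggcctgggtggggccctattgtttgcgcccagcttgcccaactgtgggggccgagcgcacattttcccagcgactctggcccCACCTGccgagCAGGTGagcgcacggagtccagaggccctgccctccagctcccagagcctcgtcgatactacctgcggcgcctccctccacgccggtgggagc
DSP promoter (chr6:7541421-7541720, plus strand): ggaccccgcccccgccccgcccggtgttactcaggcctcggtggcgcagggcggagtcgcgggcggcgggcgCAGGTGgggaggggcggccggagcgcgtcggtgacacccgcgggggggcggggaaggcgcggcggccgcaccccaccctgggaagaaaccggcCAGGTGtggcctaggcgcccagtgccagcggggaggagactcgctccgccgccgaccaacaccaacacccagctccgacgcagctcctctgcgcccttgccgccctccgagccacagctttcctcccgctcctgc
DSC2 promoter (chr18:31102372-31102671, minus strand): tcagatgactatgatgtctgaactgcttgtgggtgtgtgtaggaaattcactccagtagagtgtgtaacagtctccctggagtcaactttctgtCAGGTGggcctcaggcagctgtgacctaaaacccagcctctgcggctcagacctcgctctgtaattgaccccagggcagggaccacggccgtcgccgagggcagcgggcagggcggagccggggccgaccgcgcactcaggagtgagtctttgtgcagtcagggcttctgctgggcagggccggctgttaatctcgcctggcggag
TPD52L1 promoter (chr6:125153996-125154295, plus strand): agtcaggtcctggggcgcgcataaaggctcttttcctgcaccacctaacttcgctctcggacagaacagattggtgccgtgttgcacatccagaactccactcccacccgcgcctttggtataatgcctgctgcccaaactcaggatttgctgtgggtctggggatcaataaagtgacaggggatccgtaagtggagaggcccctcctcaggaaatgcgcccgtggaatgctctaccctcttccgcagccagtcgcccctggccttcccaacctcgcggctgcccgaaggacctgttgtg
LIN7C promoter (chr11:27506720-27507019, minus strand): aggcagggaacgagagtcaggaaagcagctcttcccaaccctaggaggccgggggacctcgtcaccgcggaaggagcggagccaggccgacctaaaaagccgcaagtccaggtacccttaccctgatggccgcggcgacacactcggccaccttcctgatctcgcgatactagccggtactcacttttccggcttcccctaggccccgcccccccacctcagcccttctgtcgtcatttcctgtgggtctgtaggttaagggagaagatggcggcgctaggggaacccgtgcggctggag
CLDN1 promoter (chr3:190322397-190322696, minus strand): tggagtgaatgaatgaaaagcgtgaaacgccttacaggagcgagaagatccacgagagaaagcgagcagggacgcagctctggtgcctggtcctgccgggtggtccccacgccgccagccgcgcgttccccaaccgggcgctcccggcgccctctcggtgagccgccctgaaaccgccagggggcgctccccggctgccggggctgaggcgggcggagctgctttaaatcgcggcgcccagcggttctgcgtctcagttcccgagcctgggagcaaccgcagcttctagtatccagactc
KRT8 promoter (chr12:52926420-52926719, minus strand): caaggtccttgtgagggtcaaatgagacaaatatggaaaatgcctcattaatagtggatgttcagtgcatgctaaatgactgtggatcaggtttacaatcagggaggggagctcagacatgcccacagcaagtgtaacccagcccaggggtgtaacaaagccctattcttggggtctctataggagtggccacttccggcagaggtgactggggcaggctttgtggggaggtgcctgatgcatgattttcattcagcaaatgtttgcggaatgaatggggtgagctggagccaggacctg
Genes with a match and genes without were both divided in direction. Of the 13, 7 had a higher mean on the arrays labelled CtBP1 knockdown than on scramble and 7 of the 13 under CtBP2 knockdown; without a match it was 5 of 7 in either. Their median log2 differences from scramble were 0.17 and 0.06 with a match, and 0.23 and 0.04 without.

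The members were divided in direction in every comparison. Signals are on the log2 scale, where a difference of 1 is a 2-fold change. Relative to scramble, 21 of the 36 genes had a higher mean on the arrays labelled CtBP1 knockdown, where 49.1% of all genes did, and the median log2 difference was 0.13 against 0.00 over all genes. That direction did not hold without scramble control 1 (median -0.01, 17 of 36 higher) or after quantile normalization (-0.02, 17 of 36), and the median was 0.02 without CtBP1 knockdown array 1 and 0.03 without array 3. With CtBP2 knockdown 20 of 36 were higher, against 47.3% of all genes, with a median of 0.05 against -0.02, or 0.01 without scramble control 1, 0.16 without scramble control 2, 0.08 and 0.10 without CtBP2 knockdown arrays 1 and 2, and 0.01 after quantile normalization. Between the knockdowns (CtBP2 minus CtBP1) 18 were higher, against 46.8% of all genes, with a median of 0.00 against -0.01. No member passed an adjusted p of 0.05 in the limma fit in any of the 3 comparisons. Over all genes 0.0% passed for CtBP1 knockdown against scramble, 0.00557% (the small nuclear RNA gene RNU4-1) for CtBP2 knockdown against scramble, and 0.0% between the knockdowns.

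An unadjusted p under 0.05 was reached by 7 members (19.4%) for CtBP1 knockdown against scramble, where 4.79% of all genes reached it. Of these, 6 were higher, as were 2.87% of all genes, and 1 was lower, as were 1.92%. The count was 5 members (13.9%) against 10.2% for CtBP2 knockdown, with 4 higher against 7.19% and 1 lower against 2.98%. Between the knockdowns it was 7 members (19.4%) against 7.77%, with 4 higher against 5.31% and 3 lower against 2.46%. Without scramble control 2, the share of members at that p lay below the share of all genes in both comparisons with scramble. Groups did not overlap for 10 members (27.8%) with the CtBP1 label, against 14.4% of all genes. Their directions were 6 higher, against 6.76%, and 4 lower, against 7.59%. With CtBP2 knockdown 16 members (44.4%) did not overlap the controls, near the 41.0% of all genes, 9 of them higher against 19.3% and 7 lower against 21.7%. Between the knockdowns 13 members (36.1%) did not overlap, near the 32.0% of all genes, with 6 higher against 15.8% and 7 lower against 16.2%. An exact permutation test of a lone gene could not go below p = 0.333 with 2 arrays against 2, or 0.2 with 3 against 2. Both comparisons with scramble share the control arrays. The member list was chosen with earlier results of these data known, so its shares against all genes are only descriptive. In these bulk samples, fewer cells expressing a gene and less RNA per cell cannot be told apart.

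**Figure D1:**
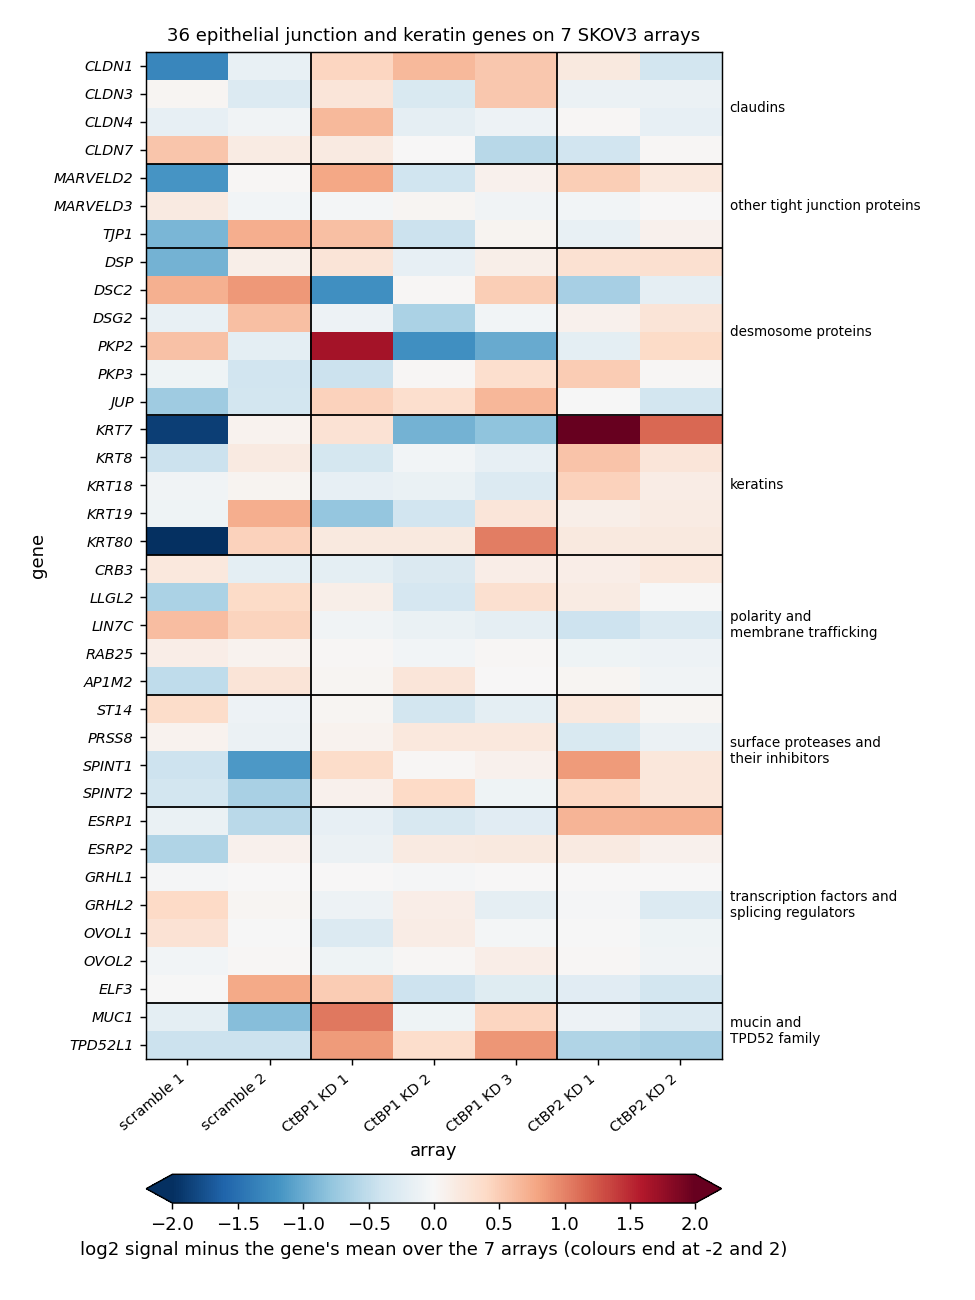
Log2 signal of the 36 measured genes (rows, grouped by role) on the 7 arrays (columns), as the difference from each gene's mean over the arrays; red is higher, blue is lower, and colours end at -2 and 2. KRT7 is highest on the CtBP2 knockdown arrays, KRT80 is lowest on scramble control 1, and PKP2 is highest on CtBP1 knockdown array 1.

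Among the claudins, CLDN1, a pore-sealing claudin, had the largest difference from scramble. Its log2 signals were 8.79 and 9.95 in the scramble clones, 10.52, 10.74 and 10.63 in those labelled CtBP1 knockdown, and 10.29 and 9.72 in the CtBP2 knockdown clones. All 3 arrays labelled CtBP1 knockdown lay above both controls and both CtBP2 knockdown arrays, while the CtBP2 knockdown arrays lay on either side of scramble control 2. This put the group 1.26 ± 0.36 above scramble (log2 difference ± SE in limma, 3 arrays against 2), a 2.4-fold higher signal that did not pass (adjusted p = 0.734). It was 0.69 without scramble control 1, and 1.84 (adjusted p = 0.0173) without scramble control 2. CLDN3 and CLDN4, both receptors of Clostridium perfringens enterotoxin that ovarian carcinomas often express, did not separate by group. CLDN3 ran from 4.05 to 4.91 over the 7 arrays, and CLDN4 from 2.43 to 3.26 with its highest value on CtBP1 knockdown array 1. The interval of the CLDN3 difference was -0.36 to 0.92 for the arrays labelled CtBP1 knockdown and -0.70 to 0.69 for CtBP2 knockdown. CLDN7, which is also found along the lateral membrane, had signals of 3.60 and 3.22 on the control arrays, 3.23, 3.07 and 2.50 with the CtBP1 label and 2.68 and 3.08 with CtBP2 knockdown. Both CtBP2 knockdown arrays lay below both controls, at a difference of -0.53 ± 0.29 (adjusted p = 0.535), or -0.34 without scramble control 1 and -0.33 without CtBP2 knockdown array 1.

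Of the other tight junction genes, MARVELD2 encodes tricellulin, which seals the points where 3 cells meet. Its signals were 3.89 and 5.09 for the controls, 5.84, 4.66 and 5.15 for the CtBP1 label and 5.56 and 5.28 for CtBP2 knockdown. The CtBP2 knockdown arrays lay above both controls, by 0.93 ± 0.50 (adjusted p = 0.535), but the controls themselves lay far apart, and the difference was 0.33 without scramble control 1 and 1.53 without scramble control 2. TJP1, which encodes the scaffold ZO-1, had 6.57 and 8.21 in the scramble clones, 8.08, 7.06 and 7.54 in those labelled CtBP1 knockdown, and 7.33 and 7.57 in the CtBP2 knockdown clones. Every knockdown array lay between the controls, so the sign turned with the control used: for CtBP2 knockdown it was -0.76 without scramble control 1 and 0.89 without scramble control 2. MARVELD3, another MARVEL-domain protein of tight junctions, ran from 2.45 to 2.70, and its difference from scramble had intervals of -0.39 to 0.21 (CtBP1 knockdown) and -0.42 to 0.23 (CtBP2 knockdown).

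Desmosome genes went in different directions. JUP, which encodes plakoglobin, the link between desmosomal cadherins and desmoplakin, had log2 signals of 5.40 and 5.73 on the control arrays, 6.56, 6.44 and 6.76 with the CtBP1 label and 6.10 and 5.73 with CtBP2 knockdown. The arrays labelled CtBP1 knockdown stood above all 4 others. The difference was 1.02 ± 0.18 from scramble (SE; 2.03-fold; adjusted p = 0.734, or 0.0263 without scramble control 2), and the CtBP2 minus CtBP1 knockdown difference was -0.67 ± 0.18 (adjusted p = 0.443). The JUP window shown above holds CACCTG on each strand, and its other window holds no match. DSC2, a desmosomal cadherin, had lower means under both knockdowns, with signals of 5.21 and 5.36 for the controls, 3.27, 4.52 and 4.997 for the CtBP1 label and 3.83 and 4.31 for CtBP2 knockdown. All 5 knockdown arrays lay below both controls, and those labelled CtBP1 knockdown spread over 1.73. The differences were -1.02 ± 0.50 (adjusted p = 0.734) and -1.21 ± 0.54 (adjusted p = 0.51), and the first was -0.53 without CtBP1 knockdown array 1.

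DSP encodes desmoplakin, which anchors keratin filaments. Its signals were 5.93 and 6.99 in the scramble clones, 7.13, 6.70 and 6.99 in those labelled CtBP1 knockdown, and 7.18 and 7.19 in the CtBP2 knockdown clones. Both CtBP2 knockdown arrays were above both controls, scramble control 2 by little, and above the 3 arrays labelled CtBP1 knockdown. The difference of 0.73 ± 0.35 from scramble (adjusted p = 0.52) rested on scramble control 1: it was 0.20 without that array, 1.26 (adjusted p = 0.0184) without scramble control 2, and 0.48 after quantile normalization. DSG2, the desmoglein of simple epithelia, had 7.09 and 7.84 on the control arrays, 7.14, 6.60 and 7.18 with the CtBP1 label and 7.32 and 7.49 with CtBP2 knockdown, with the CtBP2 knockdown arrays above those labelled CtBP1 knockdown by 0.43 ± 0.28 (adjusted p = 0.862), or 0.24 without CtBP1 knockdown array 2. PKP2, a plakophilin, showed the widest spread within a group of any member: 5.64 and 4.85 for the controls, 6.72, 3.82 and 4.04 for the CtBP1 label and 4.85 and 5.43 for CtBP2 knockdown. Array 1 labelled CtBP1 knockdown was the highest of the 7, and arrays 2 and 3 of the same label were the lowest. PKP3, another plakophilin, ran from 3.99 to 4.93, and both CtBP2 knockdown arrays (4.93 and 4.44) lay above both controls (4.33 and 4.03).

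Of the 5 keratins, 3 (KRT7, KRT8 and KRT18) lay above both controls on both CtBP2 knockdown arrays, against 19.3% of all genes, KRT18 on its brighter cluster only. These 3 also lay above the arrays labelled CtBP1 knockdown, against 15.8% of all genes. Of 18 other keratins listed for comparison, 12 were measured, and none had a mean above scramble with CtBP2 knockdown. Most of them were dim, unlike KRT7, KRT18 and KRT8, whose means over the 7 arrays were 7.53, 7.64 and 8.77. Apart from KRT5 (4.41) and KRT14 (3.36), their means ran from 1.65 to 2.50, while the array medians over all genes were 3.18 to 3.29. KRT78 was equal to scramble, and the median difference was -0.24. For 5 both CtBP2 knockdown arrays lay below both controls, against 21.7% of all genes. The direction depended on the control for some: the mean was above scramble control 2 for KRT10 and KRT13, and above scramble control 1 for KRT5. None of the 12 reached an unadjusted p under 0.05 in limma. KRT7 is a keratin of glandular epithelia. It had log2 signals of 5.65 and 7.59 in the scramble clones, 7.82, 6.59 and 6.72 in those labelled CtBP1 knockdown, and 9.64 and 8.67 in the CtBP2 knockdown clones. The CtBP2 knockdown arrays were the highest 2 of the 7. The difference was 2.54 ± 0.75 from scramble (SE, 2 arrays against 2; 5.8-fold; adjusted p = 0.394) and 2.12 ± 0.68 from the arrays labelled CtBP1 knockdown (4.33-fold; adjusted p = 0.511). The first was 1.57 without scramble control 1 and 3.51 (adjusted p = 0.0268) without scramble control 2. KRT8 and KRT18 pair into the filaments of simple epithelia. KRT8 had 8.35 and 8.95 on the control arrays, 8.43, 8.72 and 8.61 with the CtBP1 label and 9.35 and 9.01 with CtBP2 knockdown, with the CtBP2 knockdown arrays again above the other 5. Its differences were 0.53 ± 0.24 from scramble (adjusted p = 0.511) and 0.60 ± 0.22 from the arrays labelled CtBP1 knockdown (adjusted p = 0.583). The former was 0.23 without scramble control 1, 0.83 (adjusted p = 0.046) without scramble control 2 and 0.25 after quantile normalization.

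KRT18 had 7.56 and 7.69 for the controls, 7.47, 7.50 and 7.36 for the CtBP1 label and 8.10 and 7.78 for CtBP2 knockdown. The CtBP2 knockdown arrays lay above both controls and the arrays labelled CtBP1 knockdown below both, and the difference between the knockdowns was 0.50 ± 0.14 (adjusted p = 0.454). A second, dimmer KRT18 cluster differed by 0.61 between the knockdowns. On it 1 CtBP2 knockdown array, at 6.48, lay between the controls, at 6.57 and 6.44, so the opposite sides were not seen there. KRT8 and KRT18 have many near-identical pseudogenes, and a cluster may mix their signals. KRT19, a keratin without a tail domain, did not share the pattern: its signals were 6.38 and 7.20 in the scramble clones, 5.70, 6.09 and 6.72 in those labelled CtBP1 knockdown, and 6.59 and 6.64 in the CtBP2 knockdown clones, with scramble control 2 the highest of the 7. KRT80, a type II keratin found near desmosomes, had 3.49 and 6.22 on the control arrays, 5.96, 5.96 and 6.79 with the CtBP1 label and 5.96 and 5.96 with CtBP2 knockdown. Scramble control 1 was far below the other 6, which leaves the differences from scramble (1.38 ± 0.77 and 1.10 ± 0.84) resting on that array: without it they were 0.01 and -0.26, and without scramble control 2 2.74 and 2.47. The value 5.96 stands identically on 4 arrays.

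**Figure D2:**
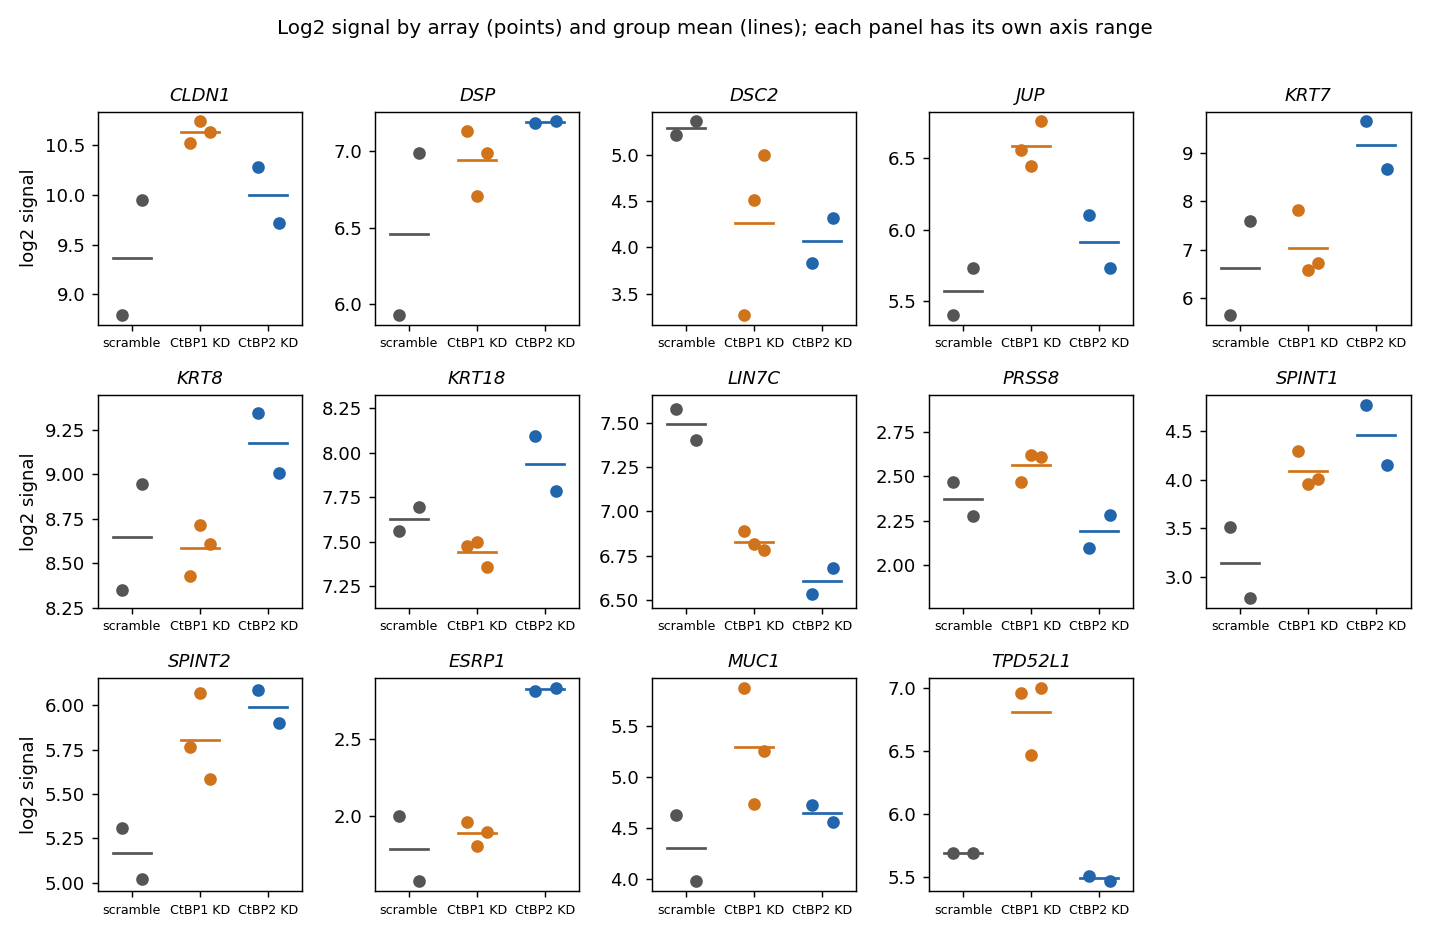
Log2 signal (y axis, its own range in each panel) of the 14 genes described in full, by group (x axis); points are arrays and lines are group means. The CtBP2 knockdown arrays are the highest for KRT7, KRT8, KRT18 and ESRP1, and the arrays labelled CtBP1 knockdown are the highest for CLDN1, JUP, MUC1 and TPD52L1.

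Of the polarity and trafficking genes, LIN7C and RAB25 had groups that did not overlap in any of the 3 comparisons. LIN7C is a small scaffold of the PALS1-PATJ polarity complex. Its log2 signals were 7.58 and 7.40 for the controls, 6.89, 6.82 and 6.78 for the CtBP1 label and 6.54 and 6.68 for CtBP2 knockdown. Scramble was highest and CtBP2 knockdown lowest. The difference from scramble was -0.88 ± 0.13 with CtBP2 knockdown (SE; 1.84-fold lower; adjusted p = 0.189) and -0.66 ± 0.12 on the arrays labelled CtBP1 knockdown (1.58-fold lower; adjusted p = 0.734). Against scramble control 1 alone the adjusted p was 0.0128 and 0.0217, and against scramble control 2 alone 0.224 and 0.461. Between the knockdowns it differed by -0.22 ± 0.12 (adjusted p = 0.789). RAB25, an epithelial GTPase of recycling endosomes, had the same order of groups over a narrow span, 1.55 to 1.79, and was among the dimmest 25% of genes by mean signal. CRB3, the Crumbs protein of epithelia, ran from 2.89 to 3.40, and AP1M2, the epithelial subunit of the AP-1B sorting adaptor, from 2.37 to 3.14. LLGL2, a basolateral polarity protein, ran from 4.07 to 5.09. In none of these 3 did the groups separate in any comparison.

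Both Kunitz-type inhibitors of the surface proteases had higher signals on every knockdown array than on the controls, without passing the test. SPINT1 and SPINT2 encode HAI-1 and HAI-2, which inhibit matriptase (ST14) and prostasin (PRSS8). SPINT1 had log2 signals of 3.51 and 2.78 in the scramble clones, 4.29, 3.95 and 4.01 in those labelled CtBP1 knockdown, and 4.77 and 4.15 in the CtBP2 knockdown clones. Every knockdown array was above both controls, by 0.94 ± 0.29 (SE; adjusted p = 0.734) with the label CtBP1 knockdown and by 1.32 ± 0.31 (2.49-fold; adjusted p = 0.334) with CtBP2 knockdown. Here scramble control 2 was the lower control, and without it the differences were 0.57 and 0.95. SPINT2 had 5.31 and 5.02 on the control arrays, 5.76, 6.07 and 5.59 with the CtBP1 label and 6.09 and 5.90 with CtBP2 knockdown. Again no knockdown array reached down to the controls, and the differences were 0.64 ± 0.19 (adjusted p = 0.734) and 0.83 ± 0.20 (adjusted p = 0.348). After quantile normalization they were 0.39 and 0.47. Neither inhibitor separated the knockdowns from each other. ST14 had 3.00 and 2.52 for the controls, 2.66, 2.26 and 2.44 for the CtBP1 label and 2.85 and 2.66 for CtBP2 knockdown, with overlap in every comparison. PRSS8 had 2.47 and 2.28 in the scramble clones, 2.47, 2.62 and 2.61 in those labelled CtBP1 knockdown, and 2.10 and 2.28 in the CtBP2 knockdown clones, and the CtBP2 minus CtBP1 knockdown difference was -0.38 ± 0.13 (adjusted p = 0.531).

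Among the regulators, ESRP1 separated the CtBP2 knockdown arrays from all others. It had log2 signals of 2.00 and 1.58 on the control arrays, 1.96, 1.81 and 1.90 with the CtBP1 label and 2.81 and 2.83 with CtBP2 knockdown. The CtBP2 knockdown arrays lay close together and above the other 5. The difference was 1.03 ± 0.17 from scramble (SE; 2.04-fold; adjusted p = 0.222, or 0.0158 without scramble control 2) and 0.93 ± 0.15 from the arrays labelled CtBP1 knockdown (adjusted p = 0.216, or 0.0183 with array weights). The signals were near the limit of the dimmest 25% of genes, a mean of 2.12. Its paralogue ESRP2 ran from 3.03 to 3.82, lowest on scramble control 1, and did not separate by group. ELF3, an epithelial ETS factor, had 4.55 and 5.32 for the controls, 5.08, 4.15 and 4.33 for the CtBP1 label and 4.33 and 4.20 for CtBP2 knockdown, and both CtBP2 knockdown arrays were below both controls (-0.67 ± 0.38; adjusted p = 0.535; -1.05 and -0.29 without scramble controls 1 and 2). GRHL2, a driver of junction genes, ran from 1.68 to 2.35, among the dimmest genes too, with both CtBP2 knockdown arrays below both controls. GRHL1, its relative, ran from 2.67 to 2.71 with 1 value repeated on 5 arrays. OVOL1 and OVOL2, zinc finger repressors that hold back mesenchymal genes, ran from 1.86 to 2.42 and from 3.40 to 3.61 without separating. For GRHL1 and OVOL2 the intervals of the difference from scramble were -0.25 to 0.28 and -0.32 to 0.30 with CtBP2 knockdown. ZEB1, a DNA-binding partner of CtBP and repressor of epithelial genes, had 5.90 and 6.52 in the scramble clones, 6.11, 5.97 and 6.04 in those labelled CtBP1 knockdown, and 5.62 and 5.78 in the CtBP2 knockdown clones, with both CtBP2 knockdown arrays the lowest of the 7 (-0.51 ± 0.22 from scramble; adjusted p = 0.501). That difference was -0.82 without scramble control 1, -0.20 without scramble control 2 and -0.81 after quantile normalization. VIM went the other way, at 9.62 and 9.77 with CtBP2 knockdown, the highest of the 7 arrays. Of 8 mesenchymal markers, ZEB1 and VIM among them, 3 had higher and 5 lower means with CtBP2 knockdown than scramble. For 2 both CtBP2 knockdown arrays lay above both controls, against 19.3% of all genes, and for 3 below, against 21.7%.

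TPD52L1 and MUC1 had their highest signals on the arrays labelled CtBP1 knockdown. TPD52L1 encodes a coiled-coil protein of the tumour protein D52 family. Its log2 signals were 5.69 and 5.69 on the control arrays, 6.96, 6.47 and 7.005 with the CtBP1 label and 5.51 and 5.47 with CtBP2 knockdown. The arrays labelled CtBP1 knockdown lay above all 4 others and the CtBP2 knockdown arrays below the controls. The difference from scramble was 1.12 ± 0.18 (SE; 2.18-fold; adjusted p = 0.734, or 0.0391 without scramble control 2), and with CtBP2 knockdown -0.20 ± 0.20 (adjusted p = 0.673; -0.51 after quantile normalization). Between the knockdowns it was -1.32 ± 0.18 (2.5-fold lower with CtBP2 knockdown; adjusted p = 0.185, or 0.0216 with array weights). Both controls hold an identical value, so they add no spread to this gene's standard error. MUC1, a membrane mucin of the apical surface, had 4.63 and 3.98 for the controls, 5.88, 4.74 and 5.26 for the CtBP1 label and 4.73 and 4.56 for CtBP2 knockdown. The arrays labelled CtBP1 knockdown were above the controls by 0.99 ± 0.36 (adjusted p = 0.734) and above the CtBP2 knockdown arrays, which differed from them by -0.65 ± 0.36 (adjusted p = 0.807; -0.36 without CtBP1 knockdown array 1). Array 2 of that label, at 4.74, was only just above scramble control 1, at 4.63, and CtBP2 knockdown array 1, at 4.73.

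**Figure D3:**
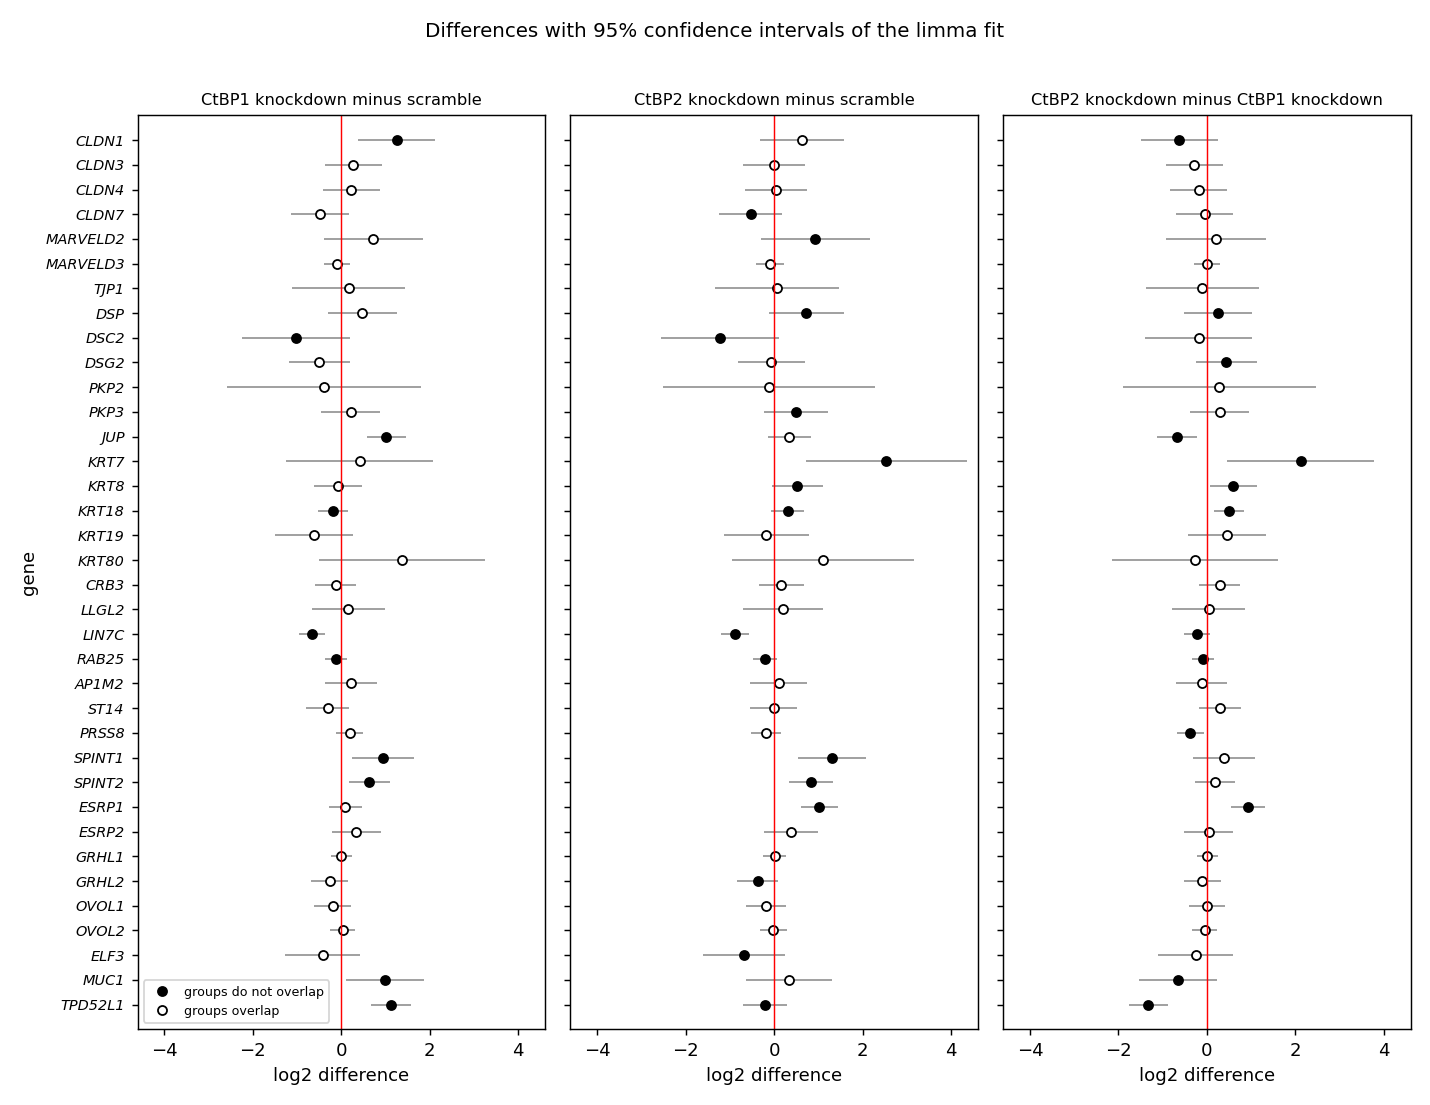
Log2 difference (x axis) of the 36 genes (y axis) in the 3 comparisons, with 95% confidence intervals of the limma fit (lines, not adjusted for the number of genes). Filled points mark genes whose groups do not overlap; these are 10, 16 and 13 genes from left to right.

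Set side by side, the knockdowns placed 5 members on the same side of both controls on all 5 arrays: SPINT1 and SPINT2 above, and DSC2, LIN7C and RAB25 below. That is 13.9% of members against 8.94% of all genes. KRT18 and TPD52L1 lay on opposite sides, 5.56% of members against 0.768% of all genes. The second, dimmer KRT18 cluster did not show the opposite sides. Both TPD52L1 controls hold an identical value, so any array off that value lies beyond both. As both comparisons use the same 2 controls, a control that strays moves both.

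How much the members depended on the control can be read from each control alone. Scramble control 1 was lower than scramble control 2 for 19 members and higher for 16, with a median gap of -0.05 and extremes of -2.73 (KRT80) and 0.79 (PKP2). The mean difference from scramble was larger than this gap for 13 of 36 members in either comparison (36.1%), against 23.5% of all genes for CtBP1 knockdown and 31.2% for CtBP2 knockdown. Without scramble control 1, 10 members changed sign in each comparison, AP1M2, GRHL1, LLGL2, MARVELD3, PKP2 and TJP1 in both. The other 4 were CRB3, DSP, ESRP2 and KRT7 for CtBP1 knockdown, and CLDN3, CLDN4, KRT80 and ST14 for CtBP2 knockdown. With scramble control 2 left out, scramble control 1 is the only control, assumed to vary like the other groups. There 8 members passed the threshold in each comparison. They were AP1M2, CLDN1, DSP, ESRP2, JUP, KRT80, LIN7C and TPD52L1 for CtBP1 knockdown and CLDN1, DSP, ESRP1, ESRP2, KRT7, KRT8, KRT80 and LIN7C for CtBP2 knockdown. In the same fits 3262 and 3952 of all 17958 genes passed. With any other array left out instead, no member passed in either comparison.

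**Figure D4:**
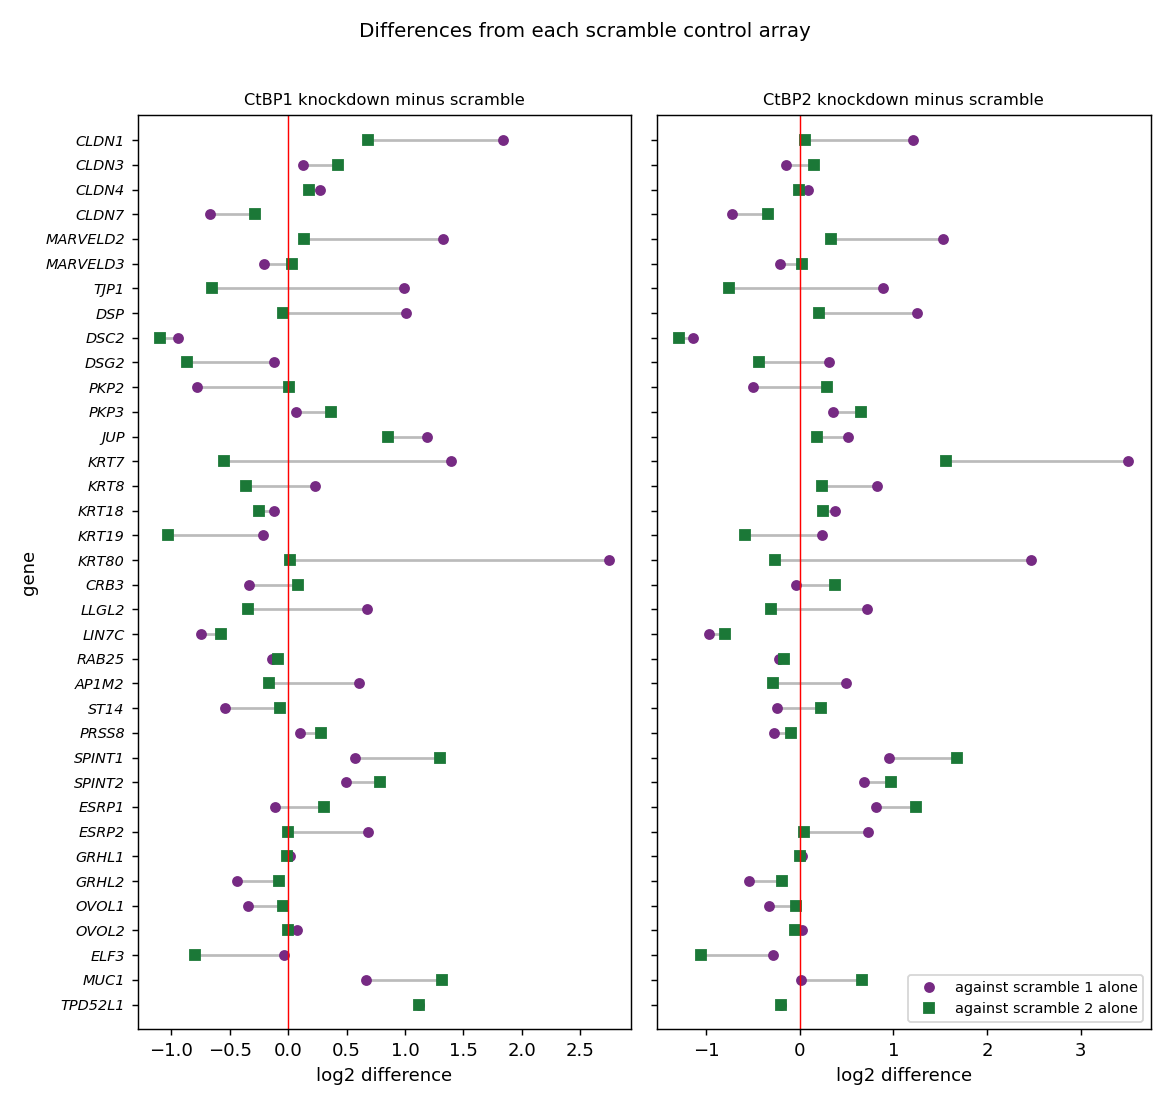
Log2 difference (x axis) of the 36 genes (y axis) from scramble control 1 alone (circles) and scramble control 2 alone (squares), for the arrays labelled CtBP1 knockdown (left) and CtBP2 knockdown (right). The widest gap is that of KRT80, 2.73; for TPD52L1 the markers coincide because both controls hold the same value.

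Clones of a group also differed among themselves. Between the highest and lowest array labelled CtBP1 knockdown, 7 members (19.4%) were over 1 log2 unit apart, against 6.50% of all genes, dim ones included: PKP2, DSC2, KRT7, MARVELD2, MUC1, TJP1 and KRT19. Between the controls it was also 7 members (19.4%), against 15.9% of all genes. Between the CtBP2 knockdown arrays it was 0 members, and KRT7 had the widest gap, 0.98. Identical values on 2 or more arrays were held by 12 members (33.3%), against 7180 of all 17958 genes, and for 5 of them (CLDN3, KRT80, RAB25, GRHL1 and TPD52L1) within a group, where they can make the spread look smaller than it is.

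Of 100 further epithelial genes listed for comparison, 84 were measured and none passed the test in any comparison. An unadjusted p under 0.05 was reached by 6 of the 84 (7.1%, against 4.79% of all genes) for CtBP1 knockdown with scramble. It was reached by 3 (3.6%, against 10.2%) for CtBP2 knockdown with scramble and by 3 (3.6%, against 7.77%) between the knockdowns, both below the share of all genes. Groups did not overlap for 16, 35 and 28 of them (19.0%, 41.7% and 33.3%, against 14.4%, 41.0% and 32.0% of all genes). EPCAM, an epithelial adhesion molecule, had 5.49 and 4.59 in the scramble clones, 6.01, 5.68 and 5.84 in those labelled CtBP1 knockdown, and 6.53 and 6.10 in the CtBP2 knockdown clones, above both controls on every knockdown array and by 1.27 ± 0.32 (adjusted p = 0.355) with CtBP2 knockdown, or 0.82 without scramble control 2. A second EPCAM cluster had 5.94 and 4.23 in the controls, 5.91, 6.07 and 4.88 under the CtBP1 label and 6.59 and 6.27 under CtBP2 knockdown, so that the CtBP2 knockdown arrays, but not those of the CtBP1 label, lay above both controls there. MYO5B, a motor of apical recycling endosomes, had 5.53 and 4.62 on the control arrays, 4.06, 3.80 and 4.32 with the CtBP1 label and 4.06 and 3.99 with CtBP2 knockdown. It was below both controls on all 5 knockdown arrays, at differences of -1.01 ± 0.29 and -1.05 ± 0.32, or -0.56 and -0.59 without scramble control 1. CGNL1, which encodes the junction protein paracingulin, had 2.13 and 2.41 for the controls, 2.58, 2.89 and 2.83 for the CtBP1 label and 1.89 and 1.95 for CtBP2 knockdown, above the controls with the label CtBP1 knockdown and below them with CtBP2 knockdown. The difference between the knockdowns was -0.85 ± 0.15 (adjusted p = 0.245, or 0.0339 with array weights). MAL2, a protein of apical transport, differed by -0.77 ± 0.17 between the knockdowns and by 0.51 ± 0.17 between the label CtBP1 knockdown and scramble. CLDN16, a claudin of magnesium transport, had 3.38 and 6.09 in the scramble clones, 4.30, 5.56 and 6.02 in those labelled CtBP1 knockdown, and 3.28 and 2.96 in the CtBP2 knockdown clones, and differed by -2.18 ± 0.87 between the knockdowns (adjusted p = 0.622). PARD3, a polarity scaffold, differed from scramble by 0.53 ± 0.18 with CtBP2 knockdown, or 0.21 after quantile normalization and 0.33 without CtBP2 knockdown array 1.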

How the data were processed

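Each of the 7 clones gave 1 Affymetrix Human Gene 1.1 ST array. Per the submitters' processing notes, the authors used Affymetrix Expression Console and RMA. The deposited values are log2 signals, from 0.60 to 12.54, and whether a step followed RMA is not given in the sources used here. Of 33297 transcript clusters, 19181 carried 1 gene symbol in GEO's platform annotation and 2055 several. The other 12061 were unnamed here. Symbols were updated through Entrez identifiers for 17930 of 17958 genes, and for the 895 genes with several clusters the cluster with the highest mean signal was taken. Array number limits the precision.

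The model was 3 group means over all 7 arrays, fitted by lmFit and eBayes of limma 3.58.1 under R 4.3.3 (two-sided). P-values were adjusted by Benjamini-Hochberg over all 17958 genes of a comparison, at a threshold of 0.05; unadjusted p-values also use 0.05. A ± value is the SE of the fitted log2 difference. The procedure was also run on simulated data with independent noise and no outlying control. How often it finds a true change on these arrays is not known from that.

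The member genes and the gene lists were chosen with earlier results of these data known. Genes given in full were, in each comparison, those past the threshold, completed to 8 with the members of lowest unadjusted p whose groups do not overlap, and up to 3 further epithelial genes by smallest p. ZEB1 and members with smaller differences were described besides. Another 15 settings were tried: quantile normalization, median centring, leaving out the dimmest 25% of genes, the mean of all clusters, a mean-variance trend, array weights, a block for the replicate number, only the groups compared, and each array left out in turn. Promoter windows and the motif search used Python 3.11.15.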

Additional observations from a re-analysis of the deposited data

Results flagged for a closer look

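For KRT18 and TPD52L1 the arrays labelled CtBP1 knockdown and the CtBP2 knockdown arrays lay on opposite sides of both scramble arrays. KRT18 was lower with the CtBP1 label and higher with CtBP2 knockdown, and the direct difference (CtBP2 minus CtBP1) was 0.50 (limma adjusted p = 0.454). TPD52L1 was higher with the CtBP1 label and lower with CtBP2 knockdown, and its direct difference was -1.32 (limma adjusted p = 0.185). Both its controls hold an identical value, so any array off that value lies beyond both. Its difference from scramble with CtBP2 knockdown was only -0.20. Neither direct difference passed, and the second KRT18 cluster did not show the opposite sides.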

How the results depend on the processing

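No member passed in any comparison with all arrays at equal weight. For the 24 member differences given in full, 0 of the 360 values under the 15 settings reversed direction. These differences were picked from members whose groups do not overlap. Leaving out an array therefore could not reverse them, nor could a setting that keeps the group means. Of all 36 members, 10 changed sign without scramble control 1 in each comparison with scramble. Leaving out each array in turn, genes past the threshold ranged from 0 to 3262 (CtBP1 knockdown against scramble) and from 0 to 3952 (CtBP2 knockdown against scramble), and members from 0 to 8 in both; the high ends are those without scramble control 2. Members with an unadjusted p under 0.05 ranged from 4 to 13 (11.1% to 36.1%) for CtBP2 knockdown against scramble, where all genes ranged from 4.33% to 39.7%, and from 3 to 8 (8.33% to 22.2%) between the knockdowns, where all genes ranged from 3.74% to 14.2%. With array weights, 4 members (11.1%, against 1.41% of all genes) reached that p for CtBP1 knockdown against scramble, 0 genes passed for CtBP2 knockdown against scramble, and 272 genes, 2 of them members (TPD52L1 and ESRP1), passed between the knockdowns. Those weights were 0.272 for each control and 2.66 for each CtBP2 knockdown array. The arrays in a group of 2 received equal weights, so the weights could not set scramble control 1 apart from scramble control 2. Quantile normalization gave 7 genes past the threshold between the knockdowns. With only the groups compared, 0 genes passed for CtBP2 knockdown against scramble. After quantile normalization LLGL2, OVOL2, PKP3 and TJP1 changed sign for CtBP1 knockdown against scramble, and LLGL2, MARVELD3, MUC1, ST14 and TJP1 for CtBP2 knockdown; the cause was not tested. Deviations from the group mean correlated at -0.354 to 0.0977 between same-numbered arrays of different groups. In a group of 2 arrays these deviations mirror each other, so a pairing by number cannot be judged from them. With the replicate number as a block, 0 genes passed for CtBP2 knockdown against scramble, and 3 members (8.33%, against 4.99% of all genes) had an unadjusted p under 0.05 between the knockdowns. Without detection calls, differences of genes near the dim end, such as ESRP1, RAB25 and GRHL2, are the least certain.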
